A study of Mus musculus with 18 samples.

Results

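The genes described are Fas and 9 other receptors of the tumor necrosis factor (TNF) receptor family: Tnfrsf10b, Tnfrsf1a, Tnfrsf21, Tnfrsf18, Tnfrsf9, Tnfrsf1b, Tnfrsf12a, Ltbr and Tnfrsf11b. They are 10 of the 34289 genes with a distinct name on the array and have 14 probes there, and 9 of the 10 have at least 1 usable spot. The family was chosen on measured values, because Fas was higher in differentiated cells and Tnfrsf18 in stem cells 4 h after ionizing radiation (IR), so that the members' values at 4 h are given as a description, with no test. Their other comparisons with a control were tested where the spots allowed it. These use the same ES and ED control arrays as the 4 h contrasts, so for Fas and Tnfrsf18 their p-values are not independent of the choice.

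Gene expression was measured in mouse embryonic stem (ES) cells and in isogenic differentiated (ED) cells made from them. The ES cells were isolated from blastocysts and cultured with leukemia inhibitory factor (LIF) on gelatin without feeder cells. The ED cells were made by depleting LIF and, by the methods text, also beta-mercaptoethanol. Differentiation lasted at least 4 days by the methods text, or, by the sample labels, 1 week or until markers of stem cells were lost. Cells of early passage were left unirradiated (groups ES and ED) or received 10 Gy of IR and were collected either 15 min later (ESRE, EDRE) or 4 h later (ESRL, EDRL). Each of the 6 groups had 3 samples, and RNA from every sample went onto 1 Agilent array of its own with Cy3 as the dye, with no pooling. The study asked how stem and differentiated cells differ in their response to IR.

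Receptors of this family sit on the cell surface and bind trimeric ligands of the TNF family. The death receptors Fas, Tnfrsf10b, Tnfrsf1a and Tnfrsf21 carry a death domain inside the cell, through which adaptors such as FADD and TRADD can bring in caspase 8 and start apoptosis. The other receptors lack this domain and recruit TRAF proteins, which feed the NF-kB pathway, while Tnfrsf11b is secreted and binds ligand as a decoy, and the genes of Fas and Tnfrsf10b are known targets of the transcription factor p53.

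Values are log2 signals minus the log2 of that array's 75th percentile, so that 0 is the brightness of that percentile, and they compare 1 probe across arrays but not 1 probe with another. A spot counts as well above background where the scanner software marked it so. The 75th percentile was a signal of between 2806 and 4268 on 15 arrays, whereas EDRE replicate 2 had 875, EDRE replicate 3 had 1155 and ESRL replicate 1 had 1952. Both of these EDRE arrays also had many spots marked as outliers and left out, 24.4% and 23.8%, and few probes well above background, 49.5% and 55.5%. Arrays were read at 6 scan times, and no scan time holds a group together with its unirradiated control, so that scan time and group cannot be told apart in any of the 5 comparisons with a control. The p-values measure only the spread between these samples, since it is not stated whether the replicates are separate cultures, and with 3 arrays per group their precision is limited.

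The labels of both cell types were checked against marker genes. The summed signal of 6 pluripotency genes, relative to the 75th percentile, was 457, 461 and 458 on the ES arrays and 4.79, 5.12 and 5.57 on the ED arrays, with Dppa5a the brightest in ES and Sox2 in ED. Pou5f1 fell by 10.29 on the log2 scale in ED and Sox2 by 2.37. On each ED array 5 of the 6 genes remained well above background, Sox2 on all 3. A sum over 7 genes of fibroblasts and mesenchyme was between 32.7 and 34.7 in ES and between 417 and 530 in ED, led by Vim in both, but Thy1 was at least 387-fold lower in ED. The 4 epithelial genes went the other way, from sums between 164 and 180 in ES to between 0.152 and 0.184 in ED, with Krt8 the brightest in both, and so did the 4 endothelial genes, from between 4.91 and 6.42 (Pecam1 brightest) to between 0.0781 and 0.0878 (Tek brightest). Of 8 immune cell genes tested, 4 were called lower in ED and 0 higher. The lower ones were Cd8a, Il2ra, Adgre1 and Itgam, the first 2 of them well above background on all ES and ED arrays. Most immune cell genes on the array were well above background on each ES and ED array, but the pan-leukocyte gene Ptprc was not on any. Whether the cell types behind these markers take part in the differences between ED and ES was not tested, and in bulk RNA fewer cells of a type and less RNA per cell cannot be told apart.

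**Figure D1:**
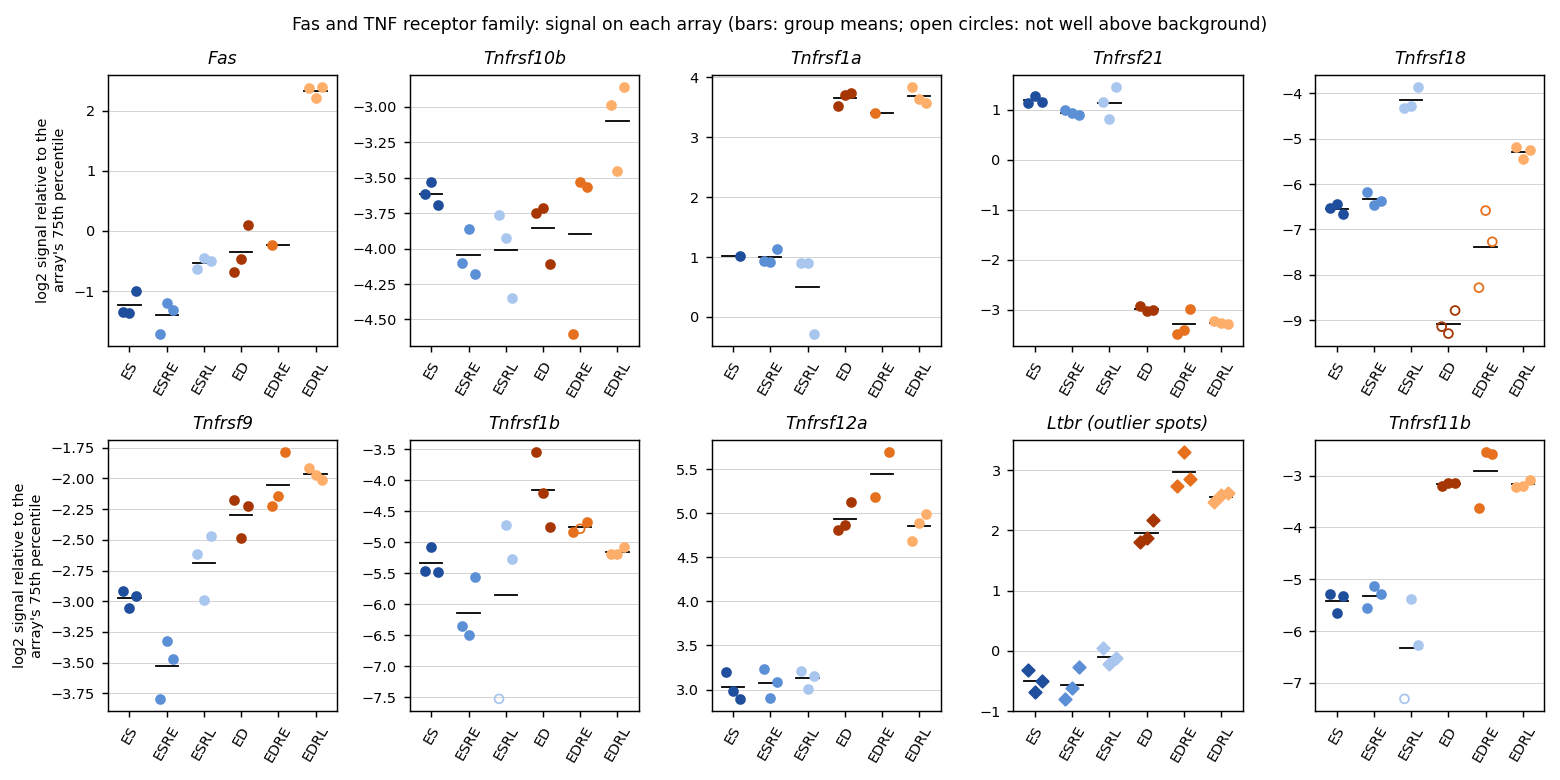
Signal of each member (its main probe, which has the highest mean signal) on every array, on the log2 scale with the array's 75th percentile at 0, with bars at the group means and open circles where the spot was not well above background. Fas is near 2.33 on the EDRL arrays and at most 0.10 on all others with a usable spot, and Tnfrsf18 is near -4.15 on the ESRL arrays.

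Fas (NM_007987), the receptor of the Fas ligand and the prototype of the death receptors, had values of -1.35, -1.37 and -1.01 on the 3 ES arrays, -1.71, -1.19 and -1.32 on the ESRE arrays and -0.63, -0.45 and -0.49 on the ESRL arrays. The ED arrays had -0.68, -0.46 and 0.10, the EDRL arrays 2.38, 2.21 and 2.40, and EDRE had 1 usable spot, at -0.23 on replicate 1. The 3 EDRL arrays thus lay above all 13 other usable values, and all 3 ESRL arrays lay above every ES and ESRE array. In the order of the group means, ESRE (-1.41 ± 0.27, SD, n = 3) and ES (-1.24 ± 0.20) differed by less than their spread, as did ESRL (-0.53 ± 0.09), ED (-0.35 ± 0.40) and the single EDRE value, followed by EDRL (2.33 ± 0.10). At 4 h the mean was 2.68 log2 units above ED in differentiated cells, a 6.39-fold difference, and 0.71 above ES in stem cells, a 1.64-fold difference. A second probe (NM_001146708) was 4.75-fold above ED and 2.12-fold above ES at 4 h, without overlap in either cell type. Within a scan time, the 3 EDRL arrays were 2.56 log2 units above EDRE replicate 1, and 2 ESRL arrays were 0.98 above 2 ESRE arrays. Since these contrasts chose the family, they were not tested.

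The promoter of Fas is shown beside that of Tnfrsf18 because the family was chosen by these genes' values at 4 h. The sequences run 5′ to 3′ from 250 bases before to 50 bases after the start site in the GRCm38.p6 build of RefSeq, at chr19:34290409-34290708 (+ strand) for Fas and chr4:156026072-156026371 (+ strand) for Tnfrsf18, and capitals mark matches to GGGCGG, which reads CCGCCC on the other strand.
Fas: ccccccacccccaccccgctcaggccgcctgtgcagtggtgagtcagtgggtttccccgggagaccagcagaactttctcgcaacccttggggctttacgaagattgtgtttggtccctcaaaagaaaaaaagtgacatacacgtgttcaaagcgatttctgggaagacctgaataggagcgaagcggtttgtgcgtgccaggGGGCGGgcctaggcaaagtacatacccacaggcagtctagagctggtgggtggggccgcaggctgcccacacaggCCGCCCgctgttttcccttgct
Tnfrsf18: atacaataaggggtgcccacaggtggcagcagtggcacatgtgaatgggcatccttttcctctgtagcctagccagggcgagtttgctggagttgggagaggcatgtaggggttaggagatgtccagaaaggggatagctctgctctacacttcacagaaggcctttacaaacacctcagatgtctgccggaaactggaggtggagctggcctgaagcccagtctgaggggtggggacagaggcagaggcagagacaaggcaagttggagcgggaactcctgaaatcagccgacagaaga
Both strands were searched for GGGCGG, for TATAAA, for an NF-kB site and for a single decamer of the p53 site. The Fas promoter holds 2 matches to GGGCGG, at -47 and 28 bases from the start, and the Tnfrsf18 promoter holds a match to none of the 4 motifs. Of the 32851 promoters of the same length, 35.7% hold GGGCGG, 13.6% TATAAA, 8.46% the NF-kB site and 8.36% the p53 decamer. GC content was 59.0% for Fas and 55.3% for Tnfrsf18, against a median of 52.7% over all promoters. Promoters were at hand for 8 of the 10 members, all but Tnfrsf10b and Tnfrsf11b. Among the other 6, Tnfrsf12a holds 5 matches to GGGCGG, Tnfrsf1b and Ltbr 2 each, Tnfrsf21 1 and Tnfrsf1a 0, and of the 2 start sites of Tnfrsf9, 1 has a match to GGGCGG and the other has overlapping matches to the NF-kB site at -43 and -42. A match is a run of letters and not a bound site, and the lack of one says only that the letters are not in this window.

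Tnfrsf18 (NM_009400) encodes GITR, a costimulatory receptor best known from regulatory T cells. Its values were -6.52, -6.44 and -6.67 on the ES arrays, -6.18, -6.47 and -6.38 on the ESRE arrays and -4.32, -4.28 and -3.86 on the ESRL arrays. The ED arrays (-9.15, -9.30 and -8.79) and the EDRE arrays (-8.29, -6.59 and -7.27) were not well above background, whereas the EDRL arrays, at -5.19, -5.46 and -5.25, were. All 3 ESRL arrays lay above every other array where the spot was detected, and the 3 EDRL arrays lay above the ES and ESRE arrays, which overlapped each other. The order of the means was thus ES (-6.54 ± 0.12, SD, n = 3) and ESRE (-6.34 ± 0.15), which did not differ beyond their spread, then EDRL (-5.30 ± 0.14) and ESRL (-4.15 ± 0.26), with ED and EDRE under the detection limit. The lowest signal well above background was -4.27 on EDRE replicate 2 and -5.52 on EDRE replicate 3. On these dim arrays the lack of detection does not place EDRE below ES. At 4 h the mean was 5.25-fold above ES in stem cells and at least 4.41-fold above ED in differentiated cells. The second probe (NM_021985) gave 5.51-fold and at least 2.84-fold. A fold written as at least was computed against the lowest signals that were well above background on the arrays of the group not detected, and holds only for the background subtraction used here. With normexp background correction the value in ESRL over ES was 1.41 on the log2 scale in place of 2.39, and EDRL over ED was 1.29 for this probe and 1.19 for the second, under the folds just given.

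**Figure D2:**
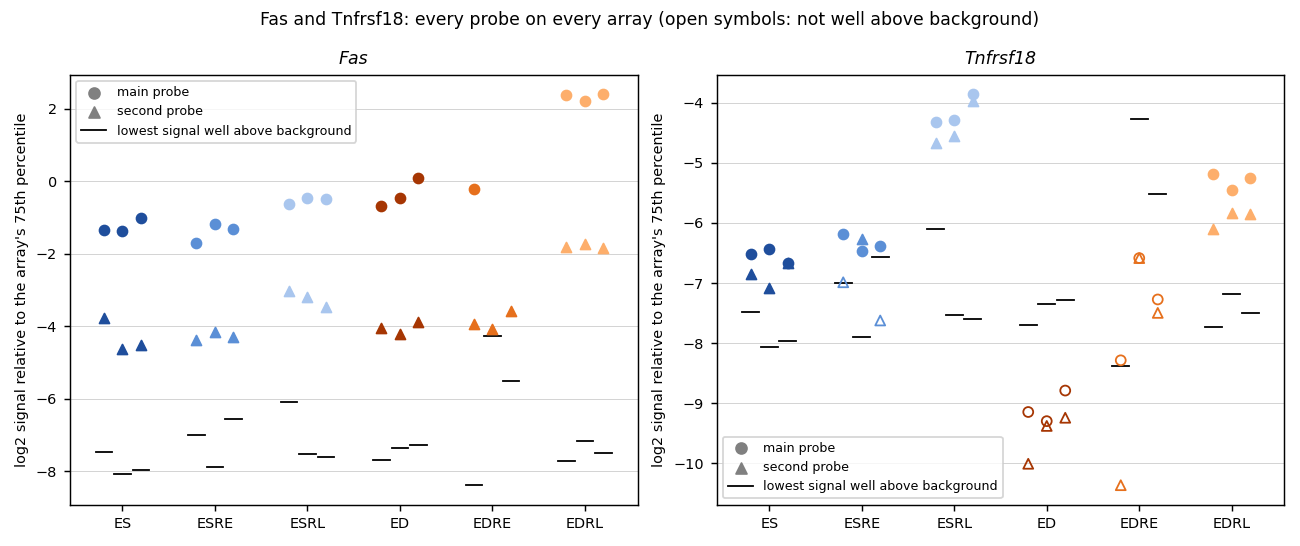
Signal of both probes of Fas and of Tnfrsf18 on each array, on the log2 scale with the array's 75th percentile at 0, with open symbols for spots not well above background and a line at the lowest signal well above background on that array. Both probes of Fas are highest on the EDRL arrays and both probes of Tnfrsf18 on the ESRL arrays.

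The pattern of Fas over the 16 arrays with a usable spot was most like those of Inka2 (Pearson r = 0.97), uc008gac (0.95), Fam214a (0.94), uc008hgh (0.94) and uc007bwq (0.94), out of 17004 candidate genes. For Tnfrsf18, over 18 arrays, the closest were Btla (0.93), Lhfpl1 (0.92), Mc1r (0.92), Plcd4 (0.92) and uc007bmk (0.91), and for Tnfrsf10b they were uc009nch (0.87), AK033344 (0.77), uc009ufn (0.77), uc007znc (0.77) and uc007zqs (0.76). These arrays share groups and scan times, so that the correlations are descriptions.

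Tnfrsf10b (NM_020275) encodes the mouse death receptor of the ligand TRAIL. Its values were -3.62, -3.53 and -3.69 in ES, -4.10, -3.86 and -4.18 in ESRE, and -3.76, -3.92 and -4.35 in ESRL. They were -3.75, -3.72 and -4.11 in ED, -4.60, -3.53 and -3.56 in EDRE, and -2.99, -3.45 and -2.86 in EDRL. The EDRL arrays were the 3 highest of all 18, and the other groups lay close together, with means between -4.05 and -3.61 that mostly overlapped in their values. At 4 h the mean was 0.76 above ED with no overlap, and 0.40 below ES with no overlap, a difference that shrank to -0.09 with arrays set to their median and -0.10 with quantile normalization.

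The remaining members were also compared with their controls at 4 h. Counted over main probes with all values present, 2 of 8 members lay above ES without overlap in ESRL and 1 below, where 10.0% and 24.3% of 22284 main probes did so, and 4 of 9 lay above ED in EDRL and 2 below, where 14.5% and 30.4% of 21270 did. The members were chosen on these contrasts, so nothing is read from the counts. Tnfrsf9, a costimulatory receptor of activated T cells with 3 probes, lay between 0.29 and 0.51 above ES in ESRL. In EDRL it lay between 0.20 and 0.33 above ED. Its main probe overlapped with ES in ESRL, and its other probes with ED in EDRL. With arrays set to their median the ranges were 0.60 to 0.82 in ESRL and 0.35 to 0.48 in EDRL. With normexp they were 0.21 to 0.26 and 0.13 to 0.27. Within the scan time that holds 2 arrays each of ESRL and ESRE, its probes were 0.83 to 1.02 higher at 4 h than at 15 min. Tnfrsf12a, the receptor of the ligand TWEAK, lay 0.10 above ES in ESRL and 0.08 below ED in EDRL, with overlap in both. Tnfrsf21 lay 0.05 log2 units from ES, with overlap, and its EDRL mean of -3.25 was under its ED mean of -2.98 without overlap. Tnfrsf1b, the receptor of TNF that lacks a death domain, had a mean of -5.16 in EDRL and -4.17 in ED, without overlap. Its ESRL values ran from -7.53, not well above background, to -4.73, across those of ES. Tnfrsf11b read -5.39 and -6.26 on the 2 ESRL arrays where it was well above background and -7.31 on the other. Its mean change from ES was -0.90, with overlap. This change was -0.29 with quantile normalization, -0.17 with normexp and between -1.36 and -0.40 with single arrays left out. In EDRL Tnfrsf11b lay 0.01 below ED with overlap. With scan time as a random block the changes in EDRL against ED were 0.06 for Tnfrsf1b, in place of -0.99, and 0.79 for Tnfrsf11b. Tnfrsf1a lay 0.51 below its single ES value in ESRL, or 0.12 without ESRL replicate 3, and 0.03 above ED in EDRL, with overlap in the latter. Ltbr, with its outlier spots kept, lay 0.40 above ES in ESRL and 0.61 above ED in EDRL, without overlap in either.

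Without IR, 5 of the 9 members tested were called between the cell types, 3 higher and 2 lower in ED. Over all 26228 genes tested, 14.9% were called higher and 26.7% lower. Of the 2 lower calls, that of Tnfrsf18 rests on a probe not detected on any ED array. With signal required in both groups, or with normexp background correction, 4 members were called, 3 higher and 1 lower. A call needed an adjusted p below 0.05 together with a log2 change larger than 1, in either direction, for any probe of the gene. Tnfrsf1a, Tnfrsf12a and Tnfrsf11b rose in ED, Tnfrsf21 fell, and Tnfrsf18 was called lower. The median change of the 9 members was 0.89, beside -0.19 over all genes tested.

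Tnfrsf21 (NM_178589), a death receptor also called DR6, had values of 1.14, 1.26 and 1.16 in ES and between -3.02 and -2.91 on the 3 ED arrays. All ED arrays lay far below all ES arrays, and no irradiated group bridged the gap: ESRE and ESRL stayed between 0.80 and 1.45, EDRE and EDRL between -3.47 and -2.98. The gene fell by 4.16 on the log2 scale, a 17.9-fold difference (SE 0.17, adjusted p = 3.33e-11). Tnfrsf18 was at least 1.86-fold higher in ES than in ED, where no array detected it, and its second probe at least 1.49-fold, both bounds under the fold limit of 2. The probe entered the test through ES alone, and the call was lost with signal required in both groups and with normexp background correction, where the change was -0.66.

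Tnfrsf1a (NM_011609), the receptor of TNF that carries a death domain, had values of 3.52, 3.71 and 3.73 in ED. ES had 1 usable spot, at 1.02 on replicate 3, and with the outlier spots kept the 3 ES arrays averaged 1.01 (SD 0.01). The gene was 6.21-fold higher in ED (log2 change 2.63, SE 0.40, adjusted p = 0.000227), with all 3 ED arrays above the ES value. This test rests on that single ES spot, with the spread taken from the other groups, and without ES replicate 3 it could not be tested.

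Tnfrsf12a (NM_013749) read 3.20, 2.98 and 2.89 in ES and 4.81, 4.86 and 5.13 in ED, so that every ED array lay above every ES array. It rose 3.75-fold (log2 change 1.91, SE 0.17, adjusted p = 4.29e-07). Tnfrsf11b (NM_008764), osteoprotegerin, the secreted decoy receptor of RANKL, read -5.28, -5.66 and -5.32 in ES and -3.20, -3.14 and -3.14 in ED. Its ED arrays also all lay above its ES arrays, and it was 4.79-fold higher (log2 change 2.26, SE 0.38, adjusted p = 0.000125). With scan time as a random block the change of Tnfrsf11b was 1.91 and was no longer called. Ltbr (NM_010736), the lymphotoxin beta receptor, had only spots marked as outliers on all 18 arrays and was not tested. With those spots kept, it read -0.33, -0.69 and -0.50 in ES and 1.82, 1.87 and 2.17 in ED, without overlap.

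Of the 4 members tested and not called, Fas, Tnfrsf9 and Tnfrsf1b lay higher in ED on all 3 arrays. Fas was 0.89 higher (SE 0.21, adjusted p = 0.00307), under the fold limit, and its second probe 0.26 (adjusted p = 0.34) with overlap. It passed the limit without ED replicate 1 (1.06) or without ES replicate 3 (1.01). The 3 probes of Tnfrsf9 were 0.68 to 0.70 higher (adjusted p from 0.00214 to 0.00473), and Tnfrsf1b was 1.18 higher (SE 0.53, adjusted p = 0.0775). Tnfrsf1b was called when only ED and ES were fitted, or without ESRL replicate 1 or 2, but with scan time as a random block its change was 0.17. Tnfrsf10b was at -0.24 (adjusted p = 0.495), a sign that turned with scaling, to 0.40 with arrays set to their median and 0.39 with quantile normalization. The scaling moved this comparison as a whole: the median change of all probes was -0.19 with the 75th percentile, 0.46 with the median, 0.22 with quantile normalization and 0.45 in the authors' matrix, and the genes called higher and lower numbered 3902 and 6998, 6971 and 4876, and 5670 and 5342 in the first 3 of these. With the median or quantiles, Fas, Tnfrsf9 and Tnfrsf1b were called too, so that 6 members were higher and 2 lower.

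**Figure D3:**
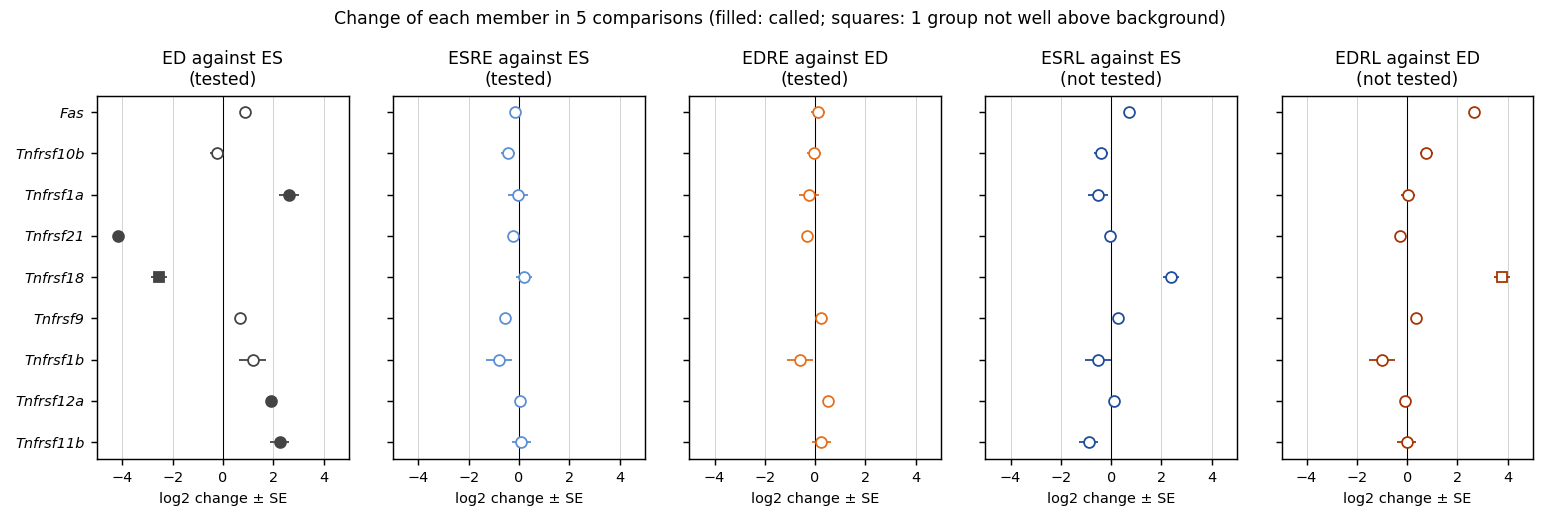
Change of the main probe of each member in 5 comparisons, as log2 with bars for the standard error, filled where a tested change was called, and square where 1 of the groups was not well above background. Tnfrsf21 stands at -4.16 in ED against ES, no point is filled in the 15 min comparisons, and the 4 h comparisons, which chose the family, were not tested.

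At 15 min after IR no member was called in stem cells. Of 9 tested with limma, 0 passed, against 0.290% of 25507 genes called higher and 0.173% called lower, and 1 gene had an unadjusted p under 0.05. That gene was Tnfrsf9, whose 3 probes lay 0.44 to 0.55 log2 units below ES without overlap (adjusted p from 0.238 to 0.362). The other main probes changed by between -0.80 (Tnfrsf1b, adjusted p = 0.755) and 0.20 (Tnfrsf18, adjusted p = 0.97). A gene-by-gene test with adjusted p-values also called 0 members.

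Differentiated cells likewise had 0 of 8 members called at 15 min, where 2.23% of 22404 genes were called higher and 2.97% lower. The main probe of Fas and that of Tnfrsf1a had 1 usable EDRE array each, too few to say whether they changed. The second probe of Fas, with 3 usable EDRE arrays, was 0.18 above ED with overlap (SE 0.21, limma adjusted p = 0.652). With normexp its change was 0.86. Only Tnfrsf12a had an unadjusted p under 0.05, at 5.19 and 5.69 on the 2 usable EDRE arrays and 0.51 above ED (SE 0.19, adjusted p = 0.106), and the gene-by-gene test called 0 as well. Tnfrsf18 was not tested, being undetected in both groups, and it was called higher in EDRE with no filter on dim probes and in the authors' matrix. Ltbr, with its outlier spots kept, read 2.74, 3.30 and 2.86 in EDRE and was called, 1.02 above ED (adjusted p = 0.0141), higher on 3 of 3 arrays. Tnfrsf1a with its outlier spots kept was 1.08 lower than ED and was not called. EDRE holds both of the dimmest arrays. With arrays set to their median, the median change over all probes was 0.29 in place of 0.03, and the 500 genes called higher and 665 lower became 1356 and 533, or 358 and 827 with quantile normalization.

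The responses of both cell types at 15 min were also compared directly. This interaction was called for 0 of 9 members, beside 2.09% of 25773 genes, with unadjusted p-values under 0.05 for 2. Of these, Tnfrsf18 was not detected in ED or EDRE, so its difference is not given. For Tnfrsf9 the response of ES minus that of ED was -0.80 (SE 0.25, adjusted p = 0.116) on the main probe and -0.53 and -0.38 on the others (adjusted p = 0.236 and 0.411). The 219 genes higher and 319 lower in this interaction over the whole array became 174 and 511 with the median and 226 and 166 with quantile normalization.

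The surrounding pathway was followed through 94 genes in 5 lists: 18 other TNF receptor genes, 18 ligands, 18 death receptor signaling genes, 26 TRAF and NF-kB genes and 15 p53 target genes, with Eda2r in 2 of them. In ED against ES, 35 of the 80 tested were called, 15 higher and 20 lower, where 14.9% of all genes tested were called higher and 26.7% lower. The counts moved with scaling, to 30 higher and 15 lower with arrays set to their median and 22 and 17 with quantile normalization, and with scan time as a random block 22 were called. With signal required in both groups they were 15 higher and 9 lower, so that the other lower calls rest on genes not well above background on all 3 ED arrays.

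Among the ligands, 6 of 13 tested fell in ED and 0 rose, with a median change of -1.08, or -0.74 with undetected genes at their bound. Scaling changed this: Tnfsf13b was called higher with the median or quantiles, Tnfsf12 with the median, and Cd70 was no longer called with either. With signal required in both groups, Eda alone of the 6 was called. With scan time as a random block, the calls of Eda, Cd70 and Tnfsf15 were lost. Ltb, a subunit of the ligand of Ltbr, was at least 86.2-fold lower, and Tnfsf11, the RANKL that Tnfrsf11b binds, at least 27.6-fold (2 usable ES arrays). Both were lower on 3 of 3 ED arrays. Both were undetected on every ED array and entered the test through ES alone, so their p-values are not given. With normexp background correction the changes were smaller, -4.48 for Ltb and -3.11 for Tnfsf11 on the log2 scale. The Fas ligand gene Fasl was not called, at -0.36 (adjusted p = 0.487). Of 14 other receptors tested, 7 fell and 1 rose, with a median of -0.95. With signal required in both groups, Ngfr and Relt alone of the 7 were called lower. The call of Relt was lost with the median, with quantiles, with the scan time block and in the authors' matrix. Tnfrsf19 was at least 317-fold lower in ED (-6.60 on the log2 scale with normexp). It too was undetected on every ED array and entered the test through ES alone. Ngfr, the low-affinity neurotrophin receptor, fell by 7.30 on the log2 scale (SE 0.25, adjusted p = 7.46e-12). Tnfrsf22, a decoy receptor of TRAIL in the mouse, rose by 1.13 (SE 0.32, adjusted p = 0.00853). The call of Tnfrsf22 was lost with scan time as a random block (0.72) and without ED replicate 1 (0.98). With arrays set to their median or quantiles, the receptors Eda2r, Tnfrsf11a, Tnfrsf23 and Tnfrsf26 were called higher too.

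Death receptor signaling genes had 7 higher and 1 lower of 18 tested, with a median of 0.73. Cflar, the caspase 8 inhibitor c-FLIP, rose by 4.44 (SE 0.21, adjusted p = 1.73e-10), and Mlkl, the effector of necroptosis, by 4.43 (SE 0.22, adjusted p = 9.03e-10), each higher on 3 of 3 ED arrays. The other probe of Cflar was 0.88 higher and not called. The adaptor Fadd and the initiator Casp8, named after their values were seen, were 2.50-fold and 6.16-fold higher. Daxx, a histone chaperone first found as a Fas-binding protein, fell by 1.38 (SE 0.14, adjusted p = 4.25e-06), a call lost with arrays set to their median. TRAF and NF-kB genes had 7 higher and 1 lower of 22, with a median of 0.46. With arrays set to their median, the genes of this list called higher also included Ikbkg and Relb. With scan time as a random block, the calls of Ikbkb, Tab2 and Traf3 were lost. Cyld, a deubiquitinase that restrains NF-kB, rose by 2.49 (SE 0.24, adjusted p = 7.72e-07), and Tank, a TRAF-binding protein, by 2.10 (SE 0.33, adjusted p = 9.18e-05). Traf4 fell by 1.01 (SE 0.16, adjusted p = 6.72e-05), a call lost with the median, with quantiles, with normexp, with the scan time block, and without ED replicate 1, ES replicate 1 or ES replicate 3. In the p53 list, 5 of 14 fell and 0 rose, with a median of -0.63. With scan time as a random block, Btg2 and Mdm2 of these 5 were no longer called. With arrays set to their median or quantiles, Cdkn1a and Eda2r of this list were called higher, and with the median Mdm2 was no longer called. Pmaip1, the BH3-only protein Noxa, was undetected in ED and at least 998-fold lower than on the 1 usable ES array (-8.20 on the log2 scale with normexp), and Perp, a membrane protein of desmosomes, fell by 4.66 (SE 0.16, adjusted p = 1.56e-11).

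**Figure D4:**
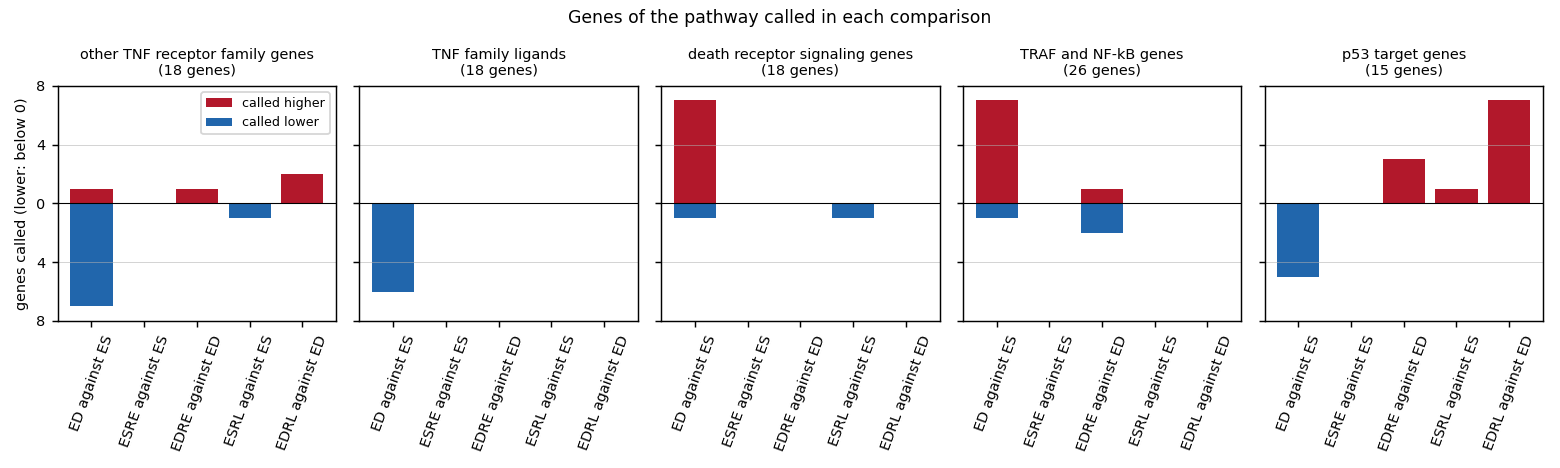
Number of genes of each list called higher (upward) and lower (downward) in each comparison with a control. The tall bars stand in ED against ES, and 4 h after IR the p53 list has 7 genes higher in EDRL and 1 in ESRL.

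At 15 min, 0 of 79 genes tested with limma were called in stem cells (8 at an unadjusted p under 0.05, and 0 by the gene-by-gene test). In differentiated cells 7 of 69 were called, 5 higher and 2 lower, where 2.23% of all genes tested were called higher and 2.97% lower. With arrays set to their median the split was 7 and 0, and with quantile normalization 4 and 0. Tnfrsf4, or OX40, a costimulatory receptor of T cells, rose by 1.30 (SE 0.19, adjusted p = 0.00298), Btg2 by 1.87 (SE 0.44, adjusted p = 0.0267), Trp53inp1 by 1.17 (SE 0.25, adjusted p = 0.0196) and Traf6 by 1.19 (SE 0.29, adjusted p = 0.0318), each higher on 3 of 3 EDRE arrays, and Bax, named because the count is small, was 1.14 higher (adjusted p = 0.0479). Ikbkg, a subunit of the NF-kB kinase, was called at -1.24 on 1 of its 7 probes (adjusted p = 0.0439). Traf1 was called at -1.21 (adjusted p = 0.0423), with overlap and 1 EDRE array well above background. With normexp background correction both directions turned, to 0.0635 for Ikbkg and 1.01 for Traf1. With signal required in both groups, the calls of Btg2, Ikbkg and Traf1 were lost. None of the 7 was called with the scan time block, with only EDRE and ED in the fit or by the gene-by-gene test. Without EDRE replicates 2 and 3, 2 genes were called, both others. Leaving out single arrays gave between 1 and 22 genes. The stem cell gene Pou5f1 was also 1.68 lower in EDRE (adjusted p = 0.00634), with 1 of 3 arrays well above background. The 5 pluripotency genes tested had a median change of 0.35. All 6 pluripotency genes summed to between 5.36 and 11.5 in EDRE and between 4.79 and 5.57 in ED, led by Sox2 in both. The part of these genes was not tested.

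At 4 h after IR, 8 of 72 pathway genes rose in differentiated cells and 0 fell, and 7 of the 8 belong to the 13 p53 targets tested. The median of the p53 list was 1.32, beside -0.10 over all genes, and 1.40% of 23209 genes were called higher and 0.254% lower. Trp53inp1, a p53-induced nuclear protein, had a mean of 0.87 on the 2 usable ED arrays and 3.09 on the EDRL arrays and rose by 2.22 (SE 0.25, adjusted p = 0.00016). Btg2, an antiproliferative gene, rose by 2.18 (SE 0.44, adjusted p = 0.0144), and Eda2r, a receptor of the TNF family that is itself a p53 target, by 1.44 (SE 0.14, adjusted p = 0.000115), from 1.65 to 3.09. Tnfrsf17 rose by 1.08 (SE 0.18, adjusted p = 0.00443). The others, named after their values were seen, were Perp (2.12), Ccng1 (1.61), Mdm2 (1.39) and Zmat3 (1.32), and all 8 were higher on every EDRL array than on every ED array. The call of Tnfrsf17 was lost with quantile normalization, with normexp (0.72), with signal required in both groups and without EDRL replicate 1, and that of Btg2 with normexp (1.30), without ED replicate 1 and without EDRL replicate 3. With scan time as a random block, 2 of the 8, Perp and Trp53inp1, were called. No ligand, death receptor signaling gene or TRAF and NF-kB gene was called here (limma, with 2, 2 and 3 genes at an unadjusted p under 0.05), and Fasl was at -1.02 (adjusted p = 0.223). With only EDRL and ED in the fit, Fasl was called lower. The endothelial gene Tek also rose, by 2.58, with the summed endothelial genes at 0.381, 0.258 and 0.27 in EDRL, led by Tek, and its part was not tested.

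In stem cells at 4 h, 3 of 78 pathway genes were called, 1 higher and 2 lower, where 0.691% of 25599 genes were called higher and 6.90% lower. The split became 4 and 1 with arrays set to their median, 2 and 0 with quantile normalization, and 0 and 9 without ESRL replicate 2. Trp53inp1 rose by 1.15 (SE 0.23, adjusted p = 0.00802) on 3 of 3 arrays, and the median of the 13 p53 targets tested was 0.30, beside -0.18 over all genes. Of these 13, 9 had an unadjusted p under 0.05 with limma. Mdm2, the p53-binding ubiquitin ligase, and Eda2r, named after their values were seen, were 0.87 and 0.61 higher (adjusted p = 0.00387 and 0.0252), under the fold limit. Diablo, which relieves caspase inhibition, was called at -1.68 (SE 0.40, adjusted p = 0.0201) and Tnfrsf26, a homolog of Tnfrsf22, at -1.31 (SE 0.36, adjusted p = 0.0387), each with 2 of 3 ESRL arrays well above background and 3 of 3 lower. None of the 3 was called with scan time as a random block, with only ESRL and ES in the fit or with normexp background correction, and leaving out single arrays gave between 1 and 9 genes. With arrays set to their median, the median change over all probes was 0.15 in place of -0.16, and the 177 genes higher and 1766 lower over the whole array became 551 and 1032, or 326 and 627 with quantile normalization. The T cell gene Cd3g and the mesenchymal gene Pdgfra were also lower, by changes of -2.13 and -1.16, with Cd3g well above background on 1 ESRL array, and their part was not tested. The contrasts at both times share their controls, and the difference between the responses of both cell types at 4 h was not tested.

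**Figure D5:**
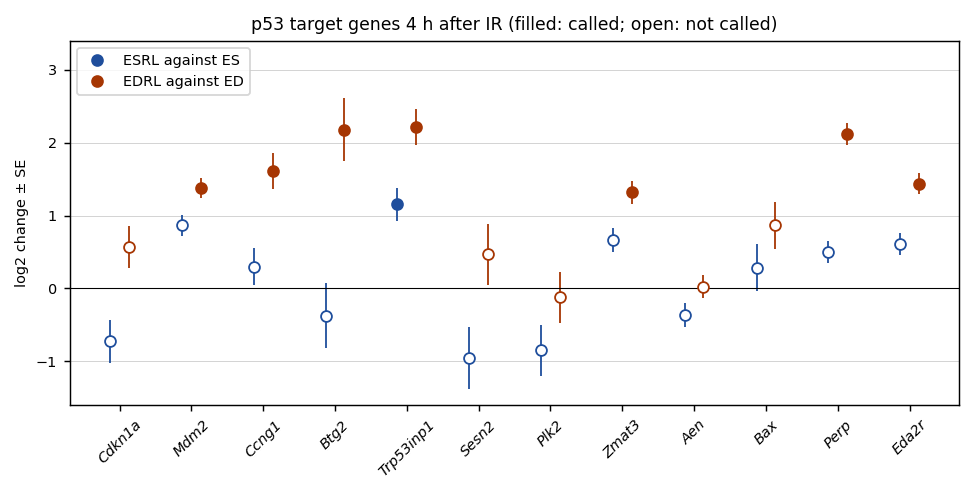
Change of the 12 p53 target genes tested in both cell types 4 h after IR, as log2 with bars for the standard error, filled where called. In EDRL 7 genes are filled, up to 2.22 for Trp53inp1, and in ESRL Trp53inp1 is, at 1.15.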

How the data were processed

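The deposited intensity files hold background-subtracted signals of Agilent Feature Extraction, without normalization between arrays (version 10.7.3.1 per the file headers, 9.1 in the submitters' processing notes). A second set of log2 values, the authors' matrix with 30133 probes and a floor of 5, served only as an alternative. Each array has 39448 spots. Without 1417 control and 200 negative control spots, 37831 spots of 37246 probes remained, 22216 with a RefSeq name. Promoters are from RefSeq (GRCm38.p6).

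Outlier spots were dropped, and signals were divided by the 75th percentile of their array before taking log2. A probe entered a test if all 3 arrays of 1 or both groups were well above background. limma 3.58.1 (R 4.3.3) fitted the 6 group means to the 18 arrays together, and p-values were adjusted by the method of Benjamini and Hochberg over all probes tested. Calls required an adjusted p below 0.05 and a log2 change larger than 1 for any probe.

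Members and lists were chosen with earlier results of these data known. Named are all members, markers of cell types, from every list the 2 largest rises and 2 largest falls called per comparison, and the 5 genes most like Fas, Tnfrsf18 and Tnfrsf10b by Pearson r. Further genes are marked where named. A marker gene and the sums that include it are not reported here.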

Additional observations from a re-analysis of the deposited data

Results flagged for a closer look

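The difference between the 15 min responses of both cell types, ES minus ED, passed the test across all genes for 4 genes of the lists and markers. It was -1.76 for Pmaip1, a value that rests on 1 ES array and on undetected spots in ED, with means of 2.52 in ES (1 usable array), 2.81 in ESRE, -9.13 in ED and -7.08 in EDRE. For Pou5f1 it was 2.30, a value that rests on spots not well above background on 2 of 3 EDRE arrays, with means of 6.69, 7.32, -3.59 and -5.27 in the same order. For Relb it was 1.91 (adjusted p = 0.0148), with means of -0.59, 0.34, 0.15 and -0.82, and for Tnfrsf4 -1.67 (adjusted p = 0.0107), with means of -2.68, -3.05, -3.12 and -1.82. ED and, on 2 of 3 arrays, EDRE were not well above background for Pmaip1. With scan time as a random block no gene on the array was called in this difference (255 probes at an unadjusted p under 0.05).

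At 4 h, all ESRL arrays lay below all ES arrays and all EDRL arrays above all ED arrays for Tnfrsf10b, where the response of ES minus that of ED was -1.16, and for Ngfr, where it was -1.31. These differences were not tested. The change of Tnfrsf10b in ESRL against ES, -0.40, shrank to -0.09 with arrays set to their median and -0.10 with quantile normalization.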

How the results depend on the processing

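Over the alternatives run, the count of members called in ESRE against ES stayed at 0, the value of Fas in EDRL over ED stayed between 2.51 and 2.83 (2.51 to 2.90 with single arrays left out), and members called in ED against ES numbered between 4 and 9. The cause of the changes that follow was not tested. With arrays set to their median, 8 members were called in ED against ES and 5 pathway genes in ESRL against ES, and Tnfrsf18 in ESRL over ES was 2.70. Quantile normalization gave 8 members in ED against ES, 4 pathway genes in EDRE against ED and 2.88 for Tnfrsf18. Normexp background correction gave 11 pathway genes in EDRE against ED, 0 in ESRL against ES and 1.41 for Tnfrsf18, and it reversed Ikbkg (0.0635) and Traf1 (1.01) in EDRE against ED. With no filter on dim probes, EDRE against ED had 1 member and 12 pathway genes called, and with outlier spots kept also 1 and 12. Requiring signal well above background in both groups left 1 pathway gene in ESRL against ES. Scan time as a random block (consensus correlation 0.81) left 22 pathway genes in ED against ES, 0 in EDRE against ED, 0 in ESRL against ES and 2 in EDRL against ED. Fitting only the groups compared, and likewise a gene-by-gene test, to which the adjustment of p was added here, gave 0 pathway genes in EDRE against ED and 0 in ESRL against ES. With the adjusted p alone, 11 and 8 were called there. The authors' matrix gave 9 members in ED against ES, 2 members and 22 pathway genes in EDRE against ED, 5 pathway genes in ESRL against ES and 2.70 for Tnfrsf18. Without EDRE arrays 2 and 3, 2 pathway genes were called in EDRE against ED and 5 in ESRL against ES. Leaving out single arrays, which for arrays outside a comparison was chosen after seeing the data, gave 0 to 1 members in the 15 min interaction (Tnfrsf18, undetected in ED and EDRE), 1 to 22 pathway genes in EDRE against ED and 1 to 9 in ESRL against ES. Deviations from the group means of same-numbered arrays correlated between -0.43 and 0.30 over 5839 probes. With 3 arrays per group this does not settle whether replicate numbers pair the samples. A replicate block gave 5 members in ED against ES, 34 and 5 pathway genes in ED against ES and EDRE against ED, 3 in ESRL against ES and 8 in EDRL against ED. Over the whole array, the counts of genes called that moved by over 1.5 times were, in ED against ES (10894), 5491 with the scan time block; in ESRE against ES (118), 65 with normexp, 0 with the block, 518 with only the groups compared, 178 by the gene-by-gene test, 322 without EDRE arrays 2 and 3 and 26 to 298 without single arrays; in EDRE against ED (1165), 1887 with the median, 3081 with normexp, 2436 without the filter, 737 with signal in both groups, 1758 with outliers kept, 1 with the block, 0 with only the groups compared, 1 by the gene-by-gene test, 4693 in the authors' matrix, 591 without EDRE arrays 2 and 3 and 246 to 5419 without single arrays; in the interaction (538), 58 with normexp, 265 with signal in both groups, 0 with the block, 308 without EDRE arrays 2 and 3 and 136 to 6129 without single arrays; in ESRL against ES (1943), 953 with quantiles, 76 with normexp, 535 with signal in both groups, 0 with the block, 403 with only the groups compared, 14 by the gene-by-gene test, 1165 in the matrix and 824 to 4075 without single arrays; and in EDRL against ED (385), 144 with normexp, 33 with the block and 836 with only the groups compared.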
